A study of Danio rerio with 13 samples.

Results

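The genes described here were 10 neural crest specifiers, *sox10*, *crestin*, *tfap2a*, *tfap2c*, *tfap2e*, *snai1b*, *snai2*, *twist1a*, *twist1b* and *ets1*. They were picked by gene symbol and not by a cutoff on their measured levels, although earlier results of these data were known. The expression table held 27911 genes, and 9 of the 10 members were found in it, 8 by exact name and 1, *ets1*, in capitals as ETS1. *crestin* matched no row by name or identifier and was not analysed here. In 8 of the 9 the mean over all libraries reached 1 RPKM (read count scaled by transcript length and library size), as it did in 11690 genes of the whole table, and counts of called genes below cover these only. The ninth, *snai1b*, lay under that mean and is given by its values alone.

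RNA was sequenced from sorted cells of zebrafish embryos carrying the *sox10*:DsRed and *fli1a*:EGFP reporters, which together mark the crest-derived cells of the pharyngeal arches. Wild-type double-positive cells were taken at 20, 28 and 36 hours post-fertilization (hpf), and the *fli1a*:EGFP-only and *sox10*:DsRed-only cells of wild-type embryos at 36 hpf. Also at 36 hpf, double-positive cells came from *edn1*-/- mutants, *jag1b*-/- mutants and their *jag1b*+/+ siblings, *hsp70I*:Gal4; *UAS*:Edn1 embryos (Edn1 overexpression), *hsp70I*:Gal4; *UAS*:NICD embryos (overexpression of the Notch1 intracellular domain) and control embryos with *hsp70I*:Gal4 alone or *UAS*:Edn1 alone. The last was a library of otherwise wild-type embryos kept in 10 μM dibenzazepine (DBZ), a γ-secretase inhibitor that blocks Notch receptor cleavage, from 24 hpf. Every embryo with *hsp70I*:Gal4, *UAS*:Edn1 or *UAS*:NICD received a heat shock at 40 °C that began at 20 hpf and ended at 24 hpf, which activates the *hsp70I* promoter throughout the embryo and not in arch crest alone. All 36 hpf embryos had been moved to 22 °C at 27 hpf, so stage and temperature cannot be told apart between 28 and 36 hpf. *edn1* mutants were picked by morphology, and the *jag1b* and transgenic embryos by genotype from tail biopsies. Each group was 1 library of pooled embryos. No test between groups was therefore possible, no p-value is given, and each fold compares 2 libraries with no replicate check.

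Neural crest cells arise at the border of the neural plate, delaminate, and migrate to form pigment cells, glia and neurons and, in the head, the ectomesenchyme that builds the facial skeleton. The 9 specifiers analysed here, *crestin* not among them, are transcription factors. Such factors switch on in the premigratory crest and control survival, delamination and the choice among these fates. In cells that settle in the arches as ectomesenchyme, *sox10* and other early crest genes are known to be shut off, whereas Twist1 genes are known in zebrafish and mouse to be required for the ectomesenchymal fate.

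A gene was called higher or lower when its RPKM ratio between the 2 libraries reached 1.5 in either direction. The RPKM values fell on steps of whole reads for 6 of the 9 members found (*tfap2e*, *snai1b*, *snai2*, *twist1a*, *twist1b* and *ets1*), and for these a 95% exact interval of the ratio follows in parentheses, covering counting error only. The depth of the other libraries lay between 0.687 and 1.23 times that of wild type at 36 hpf. At 36 hpf 4 double-positive libraries could serve as controls, namely wild type, *jag1b*+/+ siblings, *hsp70I*:Gal4 and *UAS*:Edn1. Among these, wild type had the lowest *sox10*, *tfap2c*, *tfap2e* and *ets1*, so the fall of these genes is given against all 4. The double-positive libraries bore arch markers (*dlx2a* was at 139 to 190.2 RPKM in the controls, against 21.6 in *fli1a*:EGFP-only and 10.9 in *sox10*:DsRed-only cells). They also held transcripts of other cells, in amounts that differed between libraries. Counts of marker genes above every 36 hpf control are given below without the share of all genes, which was not counted. The summed RPKM of 9 erythroid genes was 656.5 at 20 hpf, 3795 at 28 hpf and 133 to 1418 in the 36 hpf controls, that of 9 macrophage and neutrophil genes was 381, 854 and 18.1 to 101, and that of 7 muscle genes was 5.05, 18.8 and 6.07 to 349.

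Over arch development members went both ways, and their higher calls stayed near the share of all genes. In wild-type double-positive cells *sox10*, *tfap2e* and *ets1* fell steeply and *tfap2a* moderately, *twist1b* and *snai2* rose, and *twist1a*, already abundant at 20 hpf, stayed high. From 20 to 36 hpf 4 of 8 members were called lower, where 24.5% of all genes were, and 2 of 8 were called higher, where 24.3% were. The first interval had 4 members lower (11.0% of all genes) and 2 higher (20.5%), and the second had 4 lower (24.7%) and 1 higher (15.1%). The median log2 ratio from 20 to 36 hpf was -0.75 over the 8 members and 0.00 over all genes. Both rest on wild type as the 36 hpf end point, the control with the lowest *sox10*, *tfap2c*, *tfap2e* and *ets1*.

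*sox10*, the SoxE factor required for the pigment, glial and neuronal derivatives of the crest, stood at 70.5 RPKM at 20 hpf, 25.9 at 28 hpf and 3.12 at 36 hpf. The other 36 hpf controls held 12.2 RPKM in *jag1b*+/+ siblings, 16.4 in *hsp70I*:Gal4 and 9.90 in *UAS*:Edn1. The level thus dropped at each step, and every 36 hpf control was below the 28 hpf library, but the controls differed among themselves by over 5 times. The decline from 20 hpf was 22.6-fold in wild type and 4.30- to 7.12-fold with the other controls as end points. *sox10* drives the DsRed reporter used in the sort, and a lower level could come from fewer cells with the transcript or from less transcript per cell, which bulk RNA cannot tell apart.

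*tfap2e*, an AP-2 factor that acts with *tfap2a* in zebrafish melanophore development, had the largest fold. It was at 10.4 RPKM at 20 hpf (883 reads), 2.98 at 28 hpf (253 reads) and 0.0356 at 36 hpf (3 reads). The step to 28 hpf was 3.51-fold lower (3.05 to 4.05) and the full decline 293-fold (100.1 to 1426), a ratio that rests on the 3 reads. The other controls had 13, 92 and 15 reads, in the order *jag1b*+/+ siblings, *hsp70I*:Gal4 and *UAS*:Edn1, and over all 4 end points the decline ran from 11.8- to 293-fold. All 36 hpf controls were below 1 RPKM.

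*ets1*, an ETS factor of cranial crest delamination that is also active in endothelial and blood lineages, stood at 60.9, 35.3 and 7.73 RPKM at 20, 28 and 36 hpf. It was 1.72-fold lower by 28 hpf (1.62 to 1.83) and 7.89-fold lower by 36 hpf (7.06 to 8.83). With 13.4, 18.7 and 21.7 RPKM in the other controls, the decline was 2.81-fold at the least. Endothelial markers fell in sum at the same stages, whereas macrophage and neutrophil markers rose from 20 to 28 hpf (381 to 854) before they fell. The summed RPKM of 10 endothelial genes was 43.9 at 20 hpf, 15.1 at 28 hpf and 8.80 to 14.4 in the 36 hpf controls. Of the 10, 8 were higher at 20 hpf than in every 36 hpf control, as were 7 of the 9 macrophage and neutrophil genes. At 28 hpf these numbers were 5 and 9. Their part in the *ets1* values was not tested.

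*tfap2a*, the AP-2 factor needed for crest induction and for arch skeleton in zebrafish and mouse, declined less. It was at 65.6 RPKM at 20 hpf, 43.6 at 28 hpf and 34.0 at 36 hpf, and at 30.0, 38.8 and 36.4 in the siblings, *hsp70I*:Gal4 and *UAS*:Edn1. All 4 controls fell in a narrow band below the 28 hpf value, and the decline from 20 hpf was 1.69- to 2.19-fold. The first step, 1.503-fold, sat at the edge of the threshold. Its relative *tfap2c*, which overlaps with *tfap2a* in zebrafish crest induction, stayed low at 3.27, 3.71 and 2.24 RPKM, and ranged from 1.46-fold lower to 1.38-fold higher than at 20 hpf over the 4 end points. Its call as lower from 28 to 36 hpf (1.66-fold) turned to 1.22-fold higher with the siblings as end point. Of the summed RPKM of the 3 AP-2 members, *tfap2e* made up 13.2% at 20 hpf, 5.92% at 28 hpf and 0.0981% to 2.07% in the 36 hpf controls.

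Of the members that rose, *twist1b* changed most. This bHLH factor, a copy of Twist1, was at 4.82 RPKM at 20 hpf, 17.9 at 28 hpf and 50.8 at 36 hpf. It rose 3.72-fold (3.27 to 4.24) and then 2.83-fold (2.64 to 3.03), 10.5-fold in all (9.34 to 11.9). In the other controls it was at 37.4, 30.8 and 31.5 RPKM, all above the 28 hpf library and at least 6.38-fold above the 20 hpf one. *twist1a*, the other copy, was at 82.9, 119.6 and 113 RPKM, a 1.36-fold rise (1.31 to 1.41) that missed the threshold in wild type and passed it against the other 3 controls (130.1 to 143 RPKM, up to 1.73-fold). *twist1a* remained the more abundant copy per length, but *twist1b* grew from 5.50% of their summed RPKM at 20 hpf to 13.05% at 28 hpf and 17.7% to 31.1% in the 36 hpf controls.

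*snai2*, a zinc finger repressor linked to delamination and later to mesenchyme, stood at 23.8 RPKM at 20 hpf, 51.0 at 28 hpf and 56.9 at 36 hpf. In wild type nearly all of its 2.39-fold rise (2.30 to 2.49) came by 28 hpf (2.15-fold, 2.06 to 2.23). The other controls, at 69.5, 51.1 and 81.2 RPKM, were all above the 20 hpf value. *snai1b*, a related repressor and an early crest marker in zebrafish, had 62, 92 and 68 reads at the 3 stages (1.12, 1.66 and 1.23 RPKM). Its log2 ratio from 20 to 36 hpf was 0.14 (ratio interval 0.768 to 1.58), and over the 4 controls it ran from 2.05-fold lower to 1.52-fold higher, so no direction could be given.

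**Figure D1:**
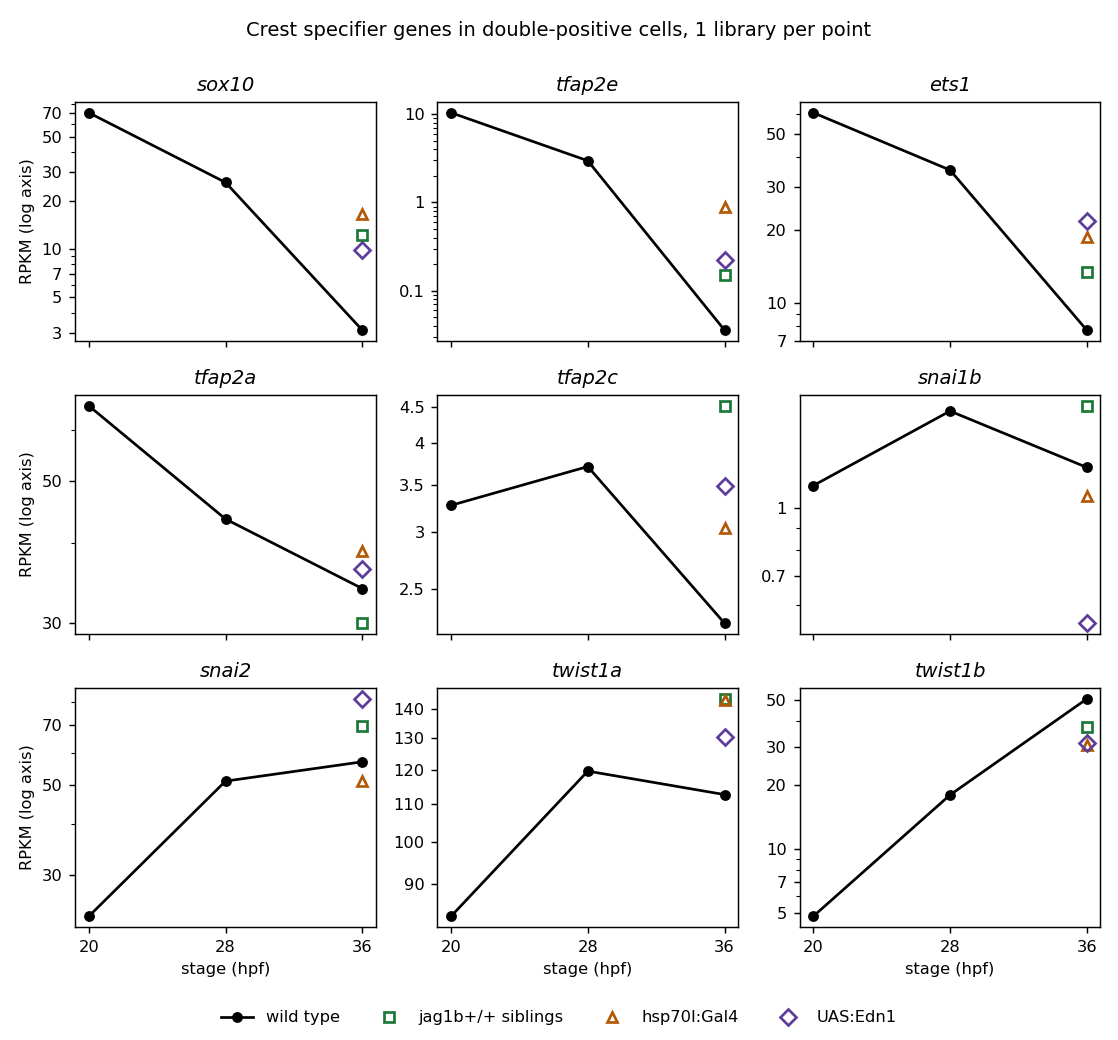
RPKM (log axis, a separate scale in each panel) of the 9 members in double-positive cells against stage in hpf. Black points joined by lines are the wild-type libraries at 20, 28 and 36 hpf and open symbols the other 3 controls at 36 hpf, each 1 library with no error bar. *sox10*, *tfap2e*, *ets1* and *tfap2a* end below their 20 hpf level in all 4 controls (*sox10* from 70.5 to between 3.12 and 16.4), and *snai2*, *twist1a* and *twist1b* end above it.

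Other genes of the crest programme, from lists of textbook crest and arch genes, went both ways in 3 of the 4 lists and mostly rose in the ectomesenchyme list. The shares of all genes to set beside the list counts are 24.5% lower and 24.3% higher from 20 to 36 hpf. Counts, shares and medians rest on wild type alone as the 36 hpf end point. In the neural plate border list 5 of 9 genes were lower at 36 hpf and 3 higher. *pax7b*, a paired factor of pigment precursors, went from 44.7 to 6.55 to 2.88 RPKM, 15.6-fold lower in all, and *pax7a* was 4.17-fold lower. Over the 4 end points these declines ran from 15.3- to 27.1-fold and from 4.17- to 9.12-fold. *msx1a*, listed in the table as msxe, was instead 4.98-fold higher (4.19 to 5.95), and at least 3.80-fold over the other end points. *zic2a* passed from 2.98 to 7.85 RPKM in wild type but was at 2.54, 3.71 and 4.29 in the siblings, *hsp70I*:Gal4 and *UAS*:Edn1, so its direction followed the end point.

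Among 12 other specifiers 5 were lower and 4 higher, against the same 24.5% and 24.3% of all genes. Some of these calls depended on the wild-type end point. *sox9b*, counted lower (2.60 to 1.43 RPKM), was at 8.12, 4.13 and 4.42 in the siblings, *hsp70I*:Gal4 and *UAS*:Edn1. *sox9a*, counted higher (2.44 to 4.52), was at 2.27 in *UAS*:Edn1. *foxd3*, the forkhead factor of early crest and glial precursors, was at 24.2, 16.1 and 1.28 RPKM (18.9-fold lower), and *mych*, a Myc gene, at 97.3, 63.3 and 20.2 (4.82-fold lower). With the other controls the declines were smaller, 2.79- to 5.02-fold for *foxd3* and 2.10- to 3.30-fold for *mych*. Another Twist gene, *twist2*, rose from 8 to 402 reads, 50.4-fold (25.3 to 118), and *myca* rose 3.16-fold (2.67 to 3.75). Over the other end points these rises ran from 18.7- to 94.9-fold and from 2.86- to 5.18-fold.

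Of 14 migration and epithelial-mesenchymal transition genes 5 were lower and 5 higher, again beside 24.5% and 24.3%. The 4 with the widest change had all fallen. *ednrab*, an endothelin receptor of crest, went from 396 to 108 to 7.86 RPKM (50.4-fold), *erbb3b*, the neuregulin receptor of Schwann cell precursors, from 840 to 17 reads (49.3-fold, 30.6 to 85.0), *cxcr4b* 17.0-fold (14.4 to 20.1) and *cdh1*, the epithelial cadherin, 12.7-fold. Over the 4 end points the declines ran from 8.91- to 54.0-fold for *ednrab*, 2.98- to 49.3-fold for *erbb3b*, 10.3- to 17.0-fold for *cxcr4b* and 7.78- to 26.4-fold for *cdh1*. Of 13 arch ectomesenchyme genes 9 were higher (24.3% of all genes) and 1, *nr2f5*, lower (24.5%). *hand2*, a ventral arch factor, rose 96.1-fold (75.0 to 125) from 0.760 RPKM, *barx1*, a condensation marker, 18.1-fold (16.2 to 20.3), and *dlx1a* 11.9-fold (10.5 to 13.6). Most of the *hand2* and *barx1* increase was present by 28 hpf, at 73.5 and 57.4 RPKM. The median log2 ratio from 20 to 36 hpf was -0.66 in the border list, 0.14 in the other specifiers, -0.25 in the migration list and 1.74 in the ectomesenchyme list, against 0.00 over all genes.

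The sum of the pigment markers also fell, but single genes went both ways up to 28 hpf. The summed RPKM of 12 pigment genes was 482 at 20 hpf, 339 at 28 hpf and 59.2 to 130 in the 36 hpf controls. Most of it at 20 and 28 hpf was *gch2* (343 and 181 RPKM). Of the 12, 7 were higher at 20 hpf than in every 36 hpf control, and 9 were so at 28 hpf. From 20 to 28 hpf *dct* rose from 0.607 to 9.44 RPKM and *tyrp1b* from 1.98 to 23.0. *mitfa*, the melanophore master regulator and a known Sox10 target, went from 13.1 to 2.32 to 0.0261 RPKM. What part of the *sox10*, *tfap2e* and *pax7b* decline came with pigment precursors in the sorted cells was not tested.

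The single-positive cells at 36 hpf were compared to see where else the members were expressed. The labels place *sox10*:DsRed-only cells as mixed cells with ear, and *fli1a*:EGFP-only cells as mixed cells with vasculature. *stm* and *otomp*, otolith genes, were at 152 and 75.3 RPKM in the former and at no more than 2.89 and 2.90 in the double-positive controls. Of 8 ear genes 6 were above every control there. *oc90* at 10.1 RPKM was within the controls (4.70 to 10.2) and *eya1* at 19.1 RPKM below them (27.9 to 45.5). *cdh5* and *kdrl*, endothelial genes, were at 23.8 and 18.2 RPKM in the *fli1a*:EGFP-only cells. The *sox10*:DsRed-only library also held pigment genes (summed RPKM 4188, most of it *gch2* at 3285, with 10 of the 12 above every control) and glial and neuronal genes (861, 10 of 12), so it was not ear alone. The *fli1a*:EGFP-only library held erythroid genes (62663) and glial and neuronal genes (616, 6 of 12 above every control, most of it *fabp7a* at 556). Macrophage and neutrophil genes (290, 9 of 9) and muscle genes (518, 7 of 7) were also above every control in this library. It also held, at lower levels than double-positive cells, arch genes such as *prrx1a* (58.1 RPKM) and *barx1* (14.0).

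In *sox10*:DsRed-only cells *sox10* and *tfap2e* were above every double-positive library at 36 hpf, *tfap2a* and *ets1* were within the controls, and *twist1a*, *twist1b* and *snai2* were low. Against wild-type double-positive cells 3 of 8 members were higher, where 16.4% of all genes were, and 3 lower, where 22.9% were. *sox10* was at 161 RPKM, 2.29 times its 20 hpf double-positive level, but as the gene behind the sorting reporter it is no independent result. *tfap2e* was at 4.65 RPKM (371 reads), 131-fold above the 3 reads of wild-type double-positive cells (44.4 to 637) and 30.9-fold above the siblings, while still 2.24-fold below double-positive cells at 20 hpf. *tfap2a* was at 36.8 RPKM, within the double-positive controls, 30.0 to 38.8. *ets1* at 15.7 RPKM was called higher against wild type (2.03-fold, 1.79 to 2.32) but was only 1.17-fold above the siblings and inside the range of the controls.

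*twist1a* was at 4.57 RPKM in *sox10*:DsRed-only cells, 24.7-fold below wild-type double-positive cells (21.7 to 28.1). *twist1b* was at 3.39 RPKM, 15.0-fold lower (12.97 to 17.4), and *snai2* at 10.9 RPKM, 5.21-fold lower (4.93 to 5.50). All 3 lay below every double-positive library at every stage. Genes of the other lists went both ways in this library, where 16.4% of all genes were higher and 22.9% lower. Of 9 border genes, 12 other specifiers and 14 migration genes, 2, 4 and 6 were higher and 4, 6 and 7 lower. Against wild-type double-positive cells *foxd3* was 64.9-fold higher, *erbb3b* 174-fold on 17 wild-type reads and *zeb2a* 14.1-fold. Their levels here were 83.0, 12.7 and 68.2 RPKM, above every double-positive control. Wild type was the lowest control for each, so the folds over the other controls were smaller. The controls ran from 1.28 to 8.66 RPKM for *foxd3*, 0.0727 to 1.201 for *erbb3b* and 4.82 to 13.9 for *zeb2a*. Of the 13 ectomesenchyme genes 11 were lower, with *barx1* 36.0-fold below wild type. The 11 include *fli1a*, which as the gene behind the EGFP reporter that these cells lacked is no independent result. *myca*, which rose over the stages, was also high (18.9 RPKM), and *mych*, which fell, was at 19.9 RPKM, as in wild-type double-positive cells at 20.2.

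In *fli1a*:EGFP-only cells 5 of 8 members were lower (17.8% of all genes) and 2 higher (11.8%). *sox10* had its lowest level of the series here, 1.19 RPKM. It is among the 5 called lower, but as the gene behind the DsRed reporter that these cells lacked it is no independent result. *tfap2a* was at 11.2 RPKM, 3.03-fold below wild-type double-positive cells and below every other library. *snai2* (24.8 RPKM, 2.29-fold), *twist1b* (19.7 RPKM, 2.58-fold) and *twist1a* (61.4 RPKM, 1.84-fold) were lower by less than in *sox10*:DsRed-only cells, and the same library held the arch genes *prrx1a* and *barx1* as given. *ets1* at 18.8 RPKM was 2.44-fold above wild-type double-positive cells (2.14 to 2.77) but 1.40-fold above the siblings, and *tfap2e* had 62 reads (23.9-fold, 7.82 to 119, on the 3 reads of wild type). *tfap2c* and *snai1b* were low in both single-positive libraries, at 1.64 and 1.60 RPKM and at 0.546 and 0.499 RPKM (26 reads each).

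**Figure D2:**
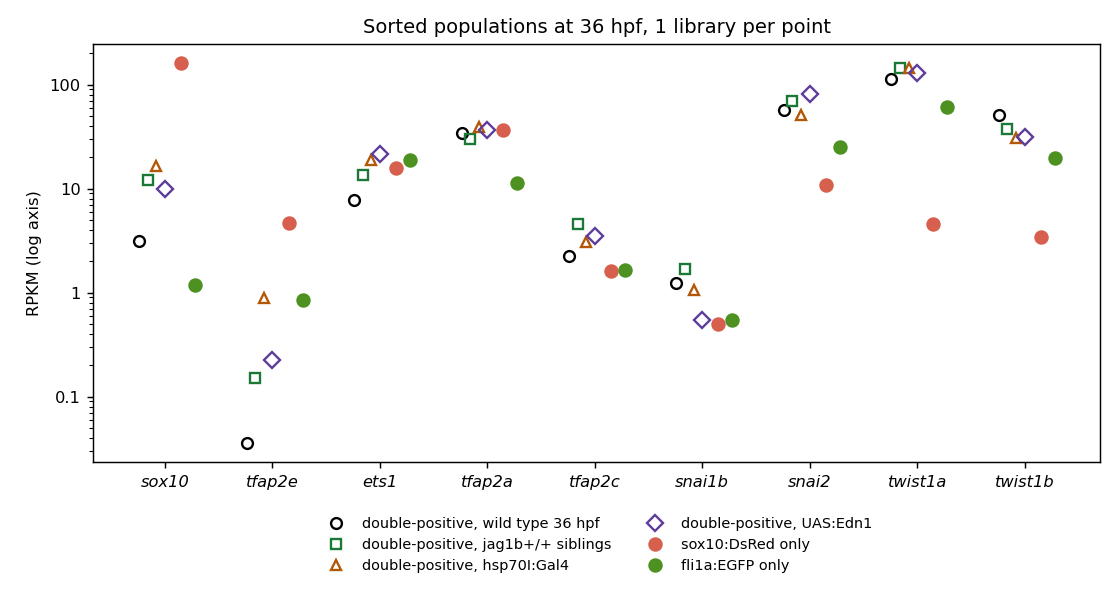
RPKM (log axis) of the 9 members in sorted cells at 36 hpf, with open symbols for the 4 double-positive control libraries and filled circles for the *sox10*:DsRed-only and *fli1a*:EGFP-only libraries, 1 library per point and no error bars. *twist1a*, *twist1b* and *snai2* are lowest in *sox10*:DsRed-only cells (4.57, 3.39 and 10.9), *sox10* and *tfap2e* highest there (161 and 4.65), and *ets1* lies between the lowest and highest controls in both.

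The perturbations were set up to ask how Edn1 and Jagged-Notch signaling bear on arch gene expression. Each library was compared with its own control and, since single libraries differ, with the range of all 4 controls. 2 pairs of controls gave the size of such differences without a perturbation. *UAS*:Edn1 and *hsp70I*:Gal4 were 1.5-fold apart in 3 of 8 members (16.5% of all genes), with *tfap2e* 3.97-fold and *sox10* 1.66-fold lower and *snai2* 1.59-fold higher in *UAS*:Edn1. The *jag1b*+/+ siblings and wild type were apart in 4 of 8 (30.6%), with *sox10* 3.91-fold, *tfap2c* 2.01-fold, *tfap2e* 4.23-fold (1.16 to 23.2) and *ets1* 1.74-fold higher in the siblings. *tfap2a* and *twist1a* differed least between controls.

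*tfap2a* left the range of the controls in all 5 perturbed libraries, or in 4 of them after rescaling. The share of all genes that did so was not counted. *twist1a* and *twist1b* also lay outside their controls in each of these libraries but *jag1b* mutants. After rescaling *twist1a* came inside with Edn1 overexpression and *twist1b* in *edn1* mutants. *tfap2a* was at 12.3 RPKM in *jag1b* mutants and 18.4 under DBZ, both below the lowest control at 30.0. With NICD it was at 70.4, above the highest at 38.8. From lowest to highest the 5 were *jag1b* mutants, DBZ, Edn1 overexpression, *edn1* mutants and NICD, each a single library. Whether Notch or Edn1 signaling sets the level of *tfap2a* was not tested. In *jag1b* mutants it was 2.44-fold below siblings and 2.76-fold below wild type, under DBZ 1.85-fold below wild type and 1.63-fold below siblings, and with NICD 1.81-fold above *hsp70I*:Gal4 and 1.93-fold above *UAS*:Edn1. Edn1 overexpression left it at 22.4 RPKM, 1.73-fold below *hsp70I*:Gal4 and 1.63-fold below *UAS*:Edn1, and *edn1* mutants had 44.7 RPKM, 1.32-fold above wild type, under the threshold. After rescaling of the libraries to equal medians the *edn1* mutant value was 35.97, inside the rescaled controls (32.0 to 38.9), and the other 4 stayed outside. AP-2 genes are also active in surface ectoderm. The summed RPKM of 8 epidermal genes was 232 in *jag1b* mutants, 389 under DBZ, 234 with NICD, 230.2 with Edn1 overexpression and 160.2 in *edn1* mutants, against 179 to 286 in the controls. Most of each sum was *krt8* (224 RPKM in *jag1b* mutants). In *jag1b* mutants 3 of the 8, *krt4*, *krt5* and *cdh1*, were below every control (*krt4* at 4.99 RPKM against 14.4 to 59.5). Their part in the *tfap2a* values was not tested.

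In *jag1b* mutants 2 of 8 members were 1.5-fold apart from siblings (6.56% of all genes) and 1, *tfap2a*, was also outside the controls (3.28%). The other, *tfap2e*, had 23 reads against 13 (2.05-fold, 0.995 to 4.40). The remaining members with a mean of 1 RPKM or more differed by less than 1.5-fold. *sox10* at 8.24 RPKM was 1.48-fold below siblings but 2.64-fold above wild type, and lay within the controls. *snai2* (72.6 RPKM), *twist1a* (120.2) and *twist1b* (30.9) were also within them, although rescaling put *snai2* above (80.6 against 75.2). *tfap2e* was 19 reads under DBZ, 6.08-fold above the 3 of wild type (1.79 to 32.1), and within the controls.

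Under DBZ 3 of 8 members were 1.5-fold apart from wild type (29.9%), of which 1, *tfap2a*, was outside the controls (16.5%). *sox10* was at 6.28 RPKM, 2.01-fold above wild type and 1.94-fold below siblings, so its direction followed the control. *twist1b* at 64.3 RPKM and *twist1a* at 161 RPKM were above all 4 controls, by 1.27-fold and 1.43-fold against wild type, under the threshold. *snai2* at 48.6 RPKM was just below the lowest control. No library of embryos treated with vehicle alone was analysed here.

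**Figure D3:**
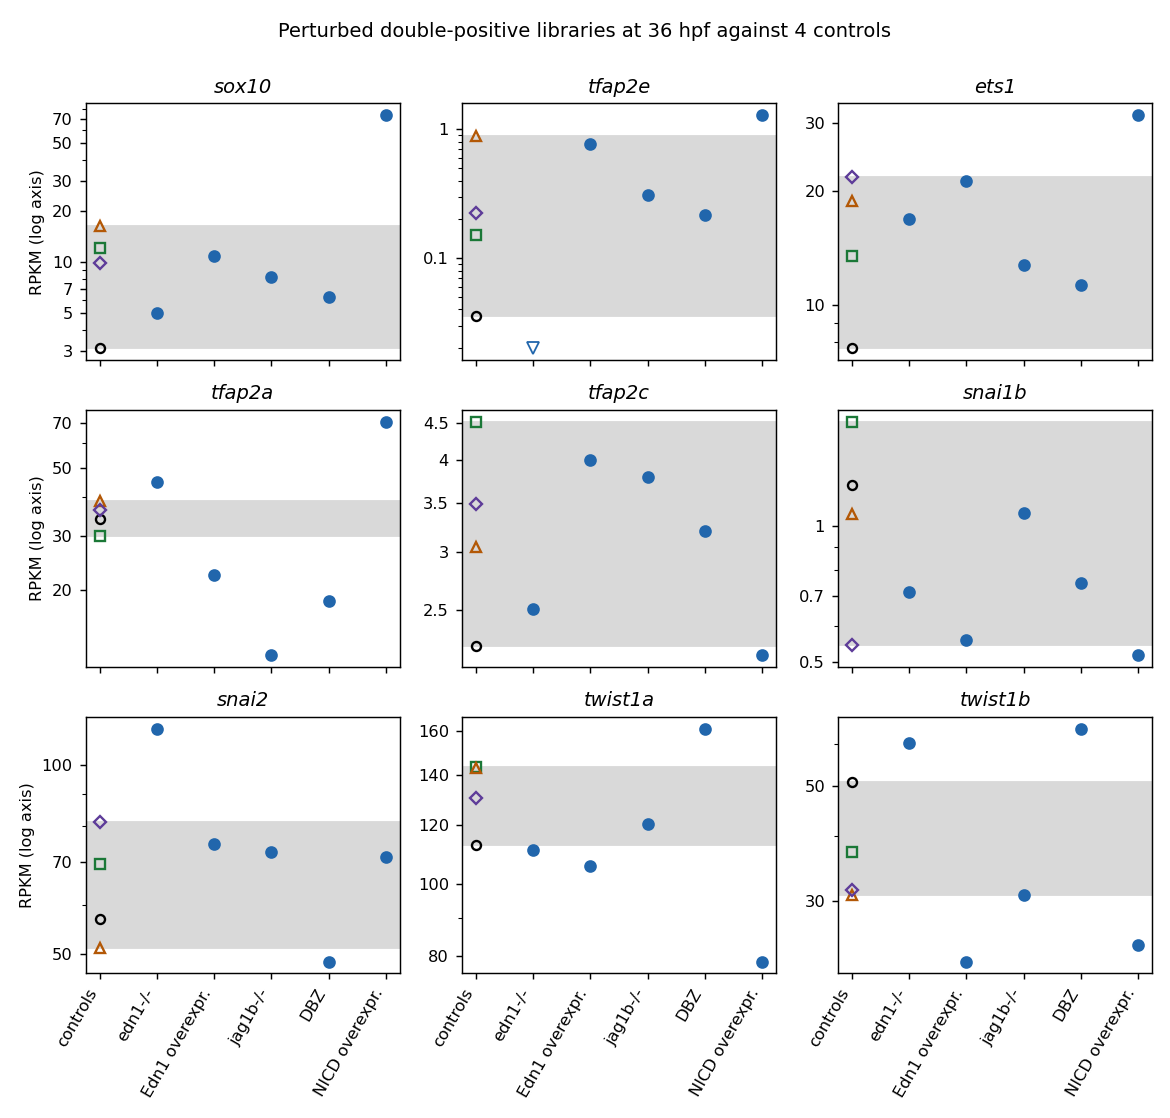
RPKM (log axis, a separate scale in each panel) of the 9 members in double-positive cells at 36 hpf. Open symbols on the left are the 4 controls (circle wild type, square *jag1b*+/+ siblings, triangle *hsp70I*:Gal4, diamond *UAS*:Edn1), the grey band is their range, filled circles are the 5 perturbed libraries, and the open triangle pointing down is *tfap2e* at 0 in *edn1* mutants, drawn at the bottom of the axis. *tfap2a* lies outside the band in all 5, although in *edn1* mutants not after rescaling (12.3 in *jag1b* mutants, 70.4 with NICD), and *sox10* only with NICD (73.4). *twist1a* and *twist1b* lie outside it in each but *jag1b* mutants.

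NICD overexpression had the most members outside the controls. Of 8 members 4 were 1.5-fold apart from *hsp70I*:Gal4 (24.3% of all genes), and all 4 were outside the range of the controls (17.6%), namely *sox10*, *tfap2a* and *ets1* above and *twist1a* below. *sox10* was at 73.4 RPKM, against 3.12 to 16.4 in the controls and 5.05 to 10.9 in the other perturbed libraries. That was 4.47-fold above *hsp70I*:Gal4, 7.42-fold above *UAS*:Edn1 and 1.04 times the level of wild-type double-positive cells at 20 hpf. *ets1* was at 31.6 RPKM, 1.68-fold above *hsp70I*:Gal4 (1.55 to 1.83) and 1.45-fold above *UAS*:Edn1, and *twist1a* at 78.6 RPKM, 1.82-fold (1.75 to 1.88) and 1.66-fold lower. With a ratio of 2 as the threshold *sox10* alone was called.

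*tfap2a* in the NICD library was likewise 1.07 times its 20 hpf level and *twist1a* 0.948 times, but the other members were not near theirs. *ets1* was 1.93-fold, *tfap2e* 8.08-fold, *snai1b* 2.16-fold and *tfap2c* 1.51-fold below its own. *snai2* was 3.00-fold and *twist1b* 5.12-fold above. *tfap2e* had 103 reads, 1.29 RPKM, above the highest control at 0.886 (1.46-fold, 1.09 to 1.95) and well below the 10.4 of 20 hpf. *twist1b* at 24.7 RPKM was below all controls by 1.25-fold or more yet above both earlier stages, and *snai2* at 71.4 RPKM was within the controls. *snai1b* (27 reads, 2.05-fold below *hsp70I*:Gal4) and *tfap2c* (2.17 RPKM, 1.40-fold below) were just below the lowest control.

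Genes of the other lists moved both ways in the same library. Of 12 other specifiers 3 were higher and 2 lower, and of 14 migration genes 5 were higher and 1 lower. *foxd3* was at 33.3 RPKM against 1.28 to 8.66 in the controls, *ednrab* at 142 against 7.34 to 44.5, *erbb3b* at 4.56 against 0.0727 to 1.201 and *zeb2a*, a zinc finger repressor of the Zeb family, at 51.1 against 4.82 to 13.9. All 4 were 3- to 4-fold above *hsp70I*:Gal4 (3.84, 3.18, 3.79 and 3.67). Of the ectomesenchyme genes 6 of 13 were lower, with *hand2* 7.84-fold and *dlx5a* 6.23-fold, and 1 higher, and of the border list 6 of 9 were lower and 0 higher. Of all genes 7.72% were lower and 16.6% higher. Dlx5a and Hand2 act in the ventral arch, downstream of Edn1.

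Some markers of other cells were also up in the NICD library. Glial and neuronal genes summed to 287 RPKM against 22.3 to 75.1 in the controls, with 7 of 12 above every control, most of it *fabp7a* at 228 RPKM, and *foxd3* and *erbb3b* belong to that list too. *fabp7a* did not set the single-positive cells apart, at 605 RPKM in *sox10*:DsRed-only and 556 in *fli1a*:EGFP-only cells. Ear genes summed to 79.0 RPKM against 33.8 to 52.7, with 4 of 8 above every control, *stm* at 20.0 RPKM and *otomp* at 6.01. Most of this sum was *eya1*, at 45.8 RPKM barely above the controls (27.9 to 45.5), and *oc90* at 5.58 RPKM was within them (4.70 to 10.2). Pigment genes summed to 101 RPKM, within the controls (59.2 to 130), with 5 of 12 above every control. The share of all genes above every control was not counted, so these counts have no background beside them. The 16.6% of all genes called higher than in *hsp70I*:Gal4 is a different measure, against that control alone. What part of the *sox10* level came with such cells was not tested.

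**Figure D4:**
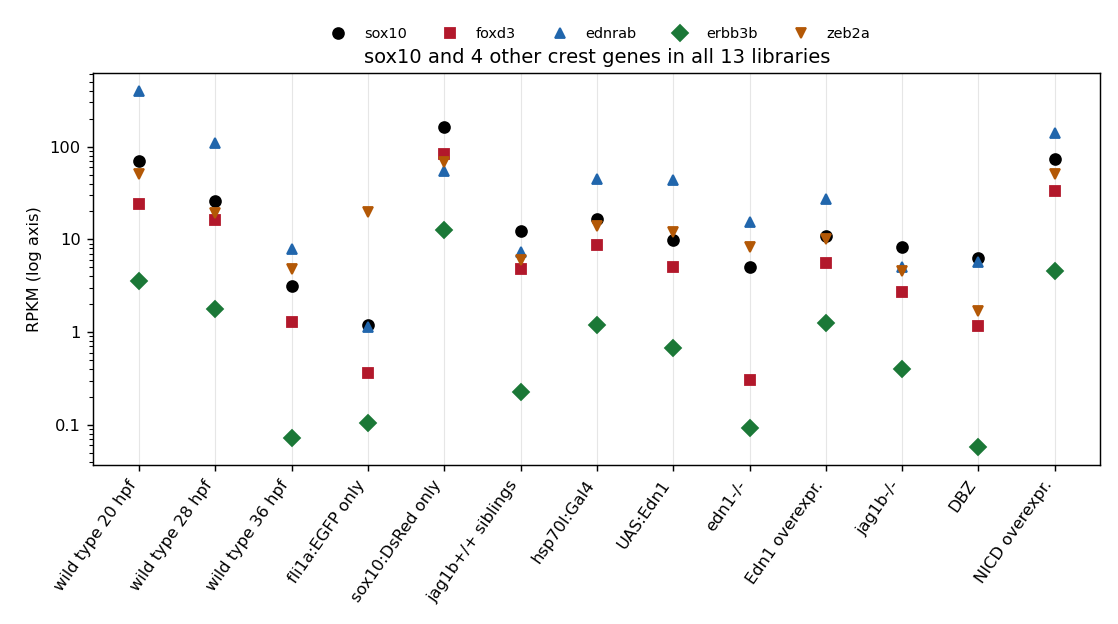
RPKM (log axis) of *sox10* and of *foxd3*, *ednrab*, *erbb3b* and *zeb2a* in all 13 libraries, 1 point per gene and library, with no error bars. All 5 genes are lower at 36 than at 20 hpf in wild type and higher with NICD than in each of the 4 controls (*sox10* 73.4, *foxd3* 33.3, *ednrab* 142). Some falling genes not drawn, such as *pax7b*, were not higher with NICD.

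In *edn1* mutants 4 of 8 members were 1.5-fold apart from wild type (35.9% of all genes) and 2 were outside the controls (28.7%). *snai2* was at 114 RPKM, above the highest control at 81.2, 2.01-fold above wild type (1.95 to 2.07) and 1.64-fold above siblings. It was the highest *snai2* level of the 13 libraries. The second, *tfap2e*, had 0 reads against 3 in wild type, both too few for a fold. All genes together had a median log2 ratio of 0.22 in this comparison, and after rescaling of the libraries to equal medians *snai2* was 1.68 times wild type. *ets1* at 16.9 RPKM was 2.18-fold above wild type and 1.25-fold above siblings, and *sox10* at 5.05 RPKM was 1.62-fold above wild type and 2.42-fold below siblings, both within the controls. *twist1b* at 60.4 RPKM was above all 4 controls and 1.19-fold above wild type, but 0.997 times wild type after rescaling. *twist1a* was at 111 RPKM, below all 4 controls and 1.01-fold below wild type. After rescaling it was 0.825 times wild type, at 89.4 against 108.3 to 153.0 in the controls.

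With Edn1 overexpression 2 of 8 members were apart from *hsp70I*:Gal4 (13.7%) and 1, *tfap2a*, outside the controls (7.17%). *sox10* at 10.9 RPKM was 1.501-fold below *hsp70I*:Gal4, at the edge of the threshold, but 1.104-fold above *UAS*:Edn1. *twist1b* at 23.0 RPKM was below all 4 controls, 1.34-fold under *hsp70I*:Gal4, and *twist1a* at 106 RPKM likewise by 1.35-fold, both under the threshold. Rescaling put *twist1a* inside the controls. *snai2* at 74.9 RPKM and *ets1* at 21.1 RPKM stayed within the controls, and rescaling put both just above them (78.4 against 75.2 and 22.1 against 20.1).

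To find the genes most like each member, log2(RPKM + 0.1) profiles were centred and compared over the 13 libraries by their mean absolute difference, with smaller values meaning closer profiles. Nearest to *sox10* were *mov10b.1* (0.48), *foxd3* (0.52) and *erbb3b* (0.57), and nearest to *tfap2e* were *rgs2* (0.47), *si:dkey-48n15.2* (0.59) and *ahcyl1* (0.63). *twist1a* lay closest to *colec12* (0.21), *pdgfra* (0.21), the PDGF receptor of ectomesenchyme, and *twist3* (0.25), and *twist1b* closest to *six4a* (0.23), *clcf1* (0.25) and *fbxl7* (0.26). For *snai2* the nearest were *PRDM16* (0.20), *nhsl1a* (0.23) and *meis2b* (0.25). No member was among the 3 nearest genes of another. *tfap2a* was nearest to *tmem70* (0.32), *p2rx7* (0.35) and *cdc42ep4a* (0.36), *ets1* to *gde1* (0.27), *HACD4* (0.28) and *prex1* (0.28), and *tfap2c* to *ppt2* (0.13), *zc3h4* (0.15) and *tmem194b* (0.16). Between members the distance was 1.06 for *sox10* and *tfap2e*, 1.07 for *sox10* and *ets1*, 0.58 for *snai2* and *twist1b*, and 2.26 for *sox10* and *twist1b*. These distances describe 13 libraries that share some controls and differ in depth and cell makeup, and flat profiles such as that of *tfap2c* give small distances to many genes.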

How the data were processed

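Sorted-cell RNA was amplified as cDNA (SMARTer), and 13 libraries were sequenced as paired ends. Which library was run on which instrument is not given in the sources used here. The authors trimmed reads (Phred 20, minimum length 25), aligned them to GRCz10 with TopHat 2 and deposited RPKM values from the Partek expectation-maximization algorithm on Ensembl release 80. This algorithm divides reads shared between near-identical genes, so paralog values can depend on each other.

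Values were used as deposited with Python 3.11.15, numpy 2.4.6, pandas 2.3.3, scipy 1.17.1 and matplotlib 3.10.9. Ratios were taken without a pseudocount over 11690 genes with a mean of at least 1 RPKM, and 1.5 was the call threshold. Reads were recovered from RPKM steps where all values came within 0.06 of whole reads, and 95% Clopper-Pearson intervals of the ratios were computed, which cover counting error only, since PCR copies are not independent molecules. The recovery was tested on simulated data. For the other members the depth behind a value is unknown.

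The members and lists were chosen with earlier results of these data known. Named from each list were up to 4 genes with a mean of at least 1 RPKM and the largest change from 20 to 36 hpf, and for each member the 3 nearest profiles. 1 gene that this rule names is not reported here. Other genes were named beside a member's result after their values were seen. Alternatives were pseudocounts of 0.1 and 1, median-ratio rescaling over 5406 genes, a ratio of 2, mean minima of 0.3 and 3 RPKM, and other controls or end points.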

Additional observations from a re-analysis of the deposited data

How the results depend on the processing

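No replicates existed, so no result could be checked by leaving 1 out. No paired analysis was possible because each group had 1 library and no test was run. Of 146 alternatives for 20 counts of called members, 114 stayed within 1.5 times of the reported count and 32 did not. At a ratio of 2, the members called lower went from 4 to 2 for 20 to 28 hpf, from 2 to 0 with Edn1 overexpression, from 1 to 0 under DBZ and from 1 to 0 with NICD, and those called higher with NICD from 3 to 1. With pseudocounts of 0.1 or 1, lower calls went from 1 to 0 in *edn1* mutants and from 2 to 1 with Edn1 overexpression, and with 1, higher calls went from 1 to 0 in *jag1b* mutants and from 2 to 1 under DBZ. Rescaling shifted log2 ratios by over 0.1 in *edn1* mutants (-0.26), *fli1a*:EGFP-only cells (0.25), *sox10*:DsRed-only cells (0.13), DBZ (0.12), siblings over wild type (0.15) and *UAS*:Edn1 over *hsp70I*:Gal4 (-0.11). It gave 1 lower and 1 higher call with Edn1 overexpression and 5 higher calls under DBZ, since *tfap2c*, *twist1a* and *ets1* then passed 1.5. A mean of at least 3 RPKM, which leaves out *tfap2e*, gave 1 higher call in *fli1a*:EGFP-only cells, 0 lower calls in *edn1* mutants, 0 higher calls in *jag1b* mutants and 1 under DBZ. A mean of at least 0.3 RPKM, which adds *snai1b*, gave 2 lower calls each in *edn1* mutants, in *jag1b* mutants, under DBZ and with NICD.

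Other controls mattered most. With siblings, *fli1a*:EGFP-only cells had 1 higher call, *edn1* mutants 3 lower and DBZ 2 lower and 1 higher. With wild type, *jag1b* mutants had 2 lower and 4 higher calls. With *UAS*:Edn1, Edn1 overexpression had 1 lower and 1 higher call, NICD 2 lower and the step from 28 to 36 hpf 2 higher. Of 116 member ratios with another control or end point, 28 kept their size, 83 moved and 5 reversed, and no called ratio reversed under either pseudocount or rescaling. Only ratios past 1.5-fold to begin with were counted as reversed. Smaller ratios also changed direction and are not among the 5. Examples are *sox10* in *jag1b* mutants (0.676 against siblings, 2.64 against wild type) and *snai2* with NICD (1.40 against *hsp70I*:Gal4, 0.880 against *UAS*:Edn1). The reversed ratios were *tfap2c* from 28 to 36 hpf with siblings (1.22), *sox10* in *edn1* mutants (0.414) and under DBZ (0.515) with siblings, and *sox10* (1.104) and *snai1b* (1.03) for Edn1 overexpression with *UAS*:Edn1. The cause was not tested. Depth limits *tfap2e*, at 3 reads in wild type at 36 hpf.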
